A study of Mus musculus with 6 samples.

Results

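The genes described here are 7 targets of cytokine signalling, Cish, Socs1, Socs2 and Socs3 of the SOCS family and Pim1, Pim2 and Pim3 of the Pim kinase family. They were chosen by name, and all 7 were found by Ensembl ID among the 57010 genes of the deposited table. The study set mRNA of Ba/F3 cells expressing the fusion TPR-FGFR1 beside that of Ba/F3 cells with an empty vector, in 3 libraries each. Ba/F3 is an established mouse haematopoietic line that normally grows on interleukin-3. The empty vector cells are labelled WT and the others as TPR-FGFR1 overexpression. The fusion cells were made with a lentivirus and kept for 6 days in puromycin at 5 µg/ml. The labels do not say whether the empty vector cells were selected too, whether either group was kept in interleukin-3, or whether the fusion cells are 1 clone or a pool. Nor do they say that the libraries came from separate cultures, so the spread behind each p-value may be technical.

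When interleukin-3 binds its receptor, the attached kinase JAK2 phosphorylates STAT5, which enters the nucleus and binds sites with the letters TTCNNNGAA. Among the genes that STAT5 switches on are its own inhibitors, the SOCS proteins, which bind phosphotyrosines with an SH2 domain and recruit a ubiquitin ligase through their SOCS box. STAT5 also induces Pim kinases, serine/threonine kinases that need no activating phosphorylation and that promote survival and growth.

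The values are TPM, a relative abundance scaled by transcript length that keeps no read number, so the depth behind each value is unknown. Each library had 12679 to 12839 genes at 1 TPM or more. Fgfr1 was at 0.02, 0.04 and 0.05 TPM in the empty vector libraries and at 0.70, 0.58 and 1.26 TPM in TPR-FGFR1 replicates 1, 2 and 3. The cells are labelled as B lymphocytes, but of 12 B-lineage markers only Cd79b averaged at least 1 TPM, and Rag1 was listed at 0 in every library. General haematopoietic markers were present (7 of 8, all but Kit, summing to 704 to 708 TPM with the empty vector and 546 to 629 TPM with the fusion). Of the myeloid and mast cell markers, 5 of 10 averaged at least 1 TPM (sums of 305 to 315 and 204 to 296 TPM). Most of that sum was Gata2, at 231 to 239 TPM with the empty vector and 133 to 215 TPM with the fusion. Cpa3, Mcpt8, Mpo, Elane and Csf1r of that list were at most 0.08 TPM in any library. T and NK cell markers summed to at most 0.19 TPM (0 of 7), and Vim was the only one of 7 stromal and epithelial markers at 1 TPM or more. TPR-FGFR1 replicate 3 stood apart from the other fusion libraries. Its median log2 difference from the empty vector in the fifth of genes richest in GC, minus that in the fifth of genes poorest in GC, was −0.0694, against −0.694 and −0.861 in replicates 1 and 2.

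As deposited, the levels of these genes differed little between the groups. Pim2 fell by 0.27 on the log2 scale, Socs2 and Socs3 were higher in every fusion library without passing the test, and Cish and Pim1 overlapped between the groups. Socs1 and Pim3 were under the filter of a mean of 1 TPM. Of the 5 genes that passed it, 0 were called higher and 1 was called lower at an adjusted p under 0.05 (limma on log2(TPM + 1), Benjamini-Hochberg adjustment over 12862 genes), where 10.2% of tested genes were called higher and 10.0% lower. The 95% confidence interval of the fold change left out 0 for Socs2, Socs3 and Pim2 among these 5. Once a smooth trend over GC content and transcript length was removed from each library, Cish, Socs2, Socs3 and Pim1 were called higher (4 of 5) and 0 were called lower, where 16.4% of 12541 genes were called higher and 15.4% lower. In bulk samples, fewer cells expressing a gene and less RNA per cell cannot be told apart.

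The 7 transcripts spanned a wide range. Pim1 was the most abundant, at rank 186 of the whole table by mean TPM, followed by Cish (rank 825), Pim2 (1365), Socs2 (5603), Socs3 (9330), Socs1 (13733) and Pim3 (17085). This order held in all 6 libraries, and the ranges of neighbouring genes did not overlap. The closest neighbours were Cish and Pim2, whose mean TPM differed 1.45-fold, with a lowest Cish value of 115.5 TPM and a highest Pim2 value of 98.2 TPM. The widest ratio was between Socs3 and Socs1, at 9.29-fold.

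**Figure D1:**
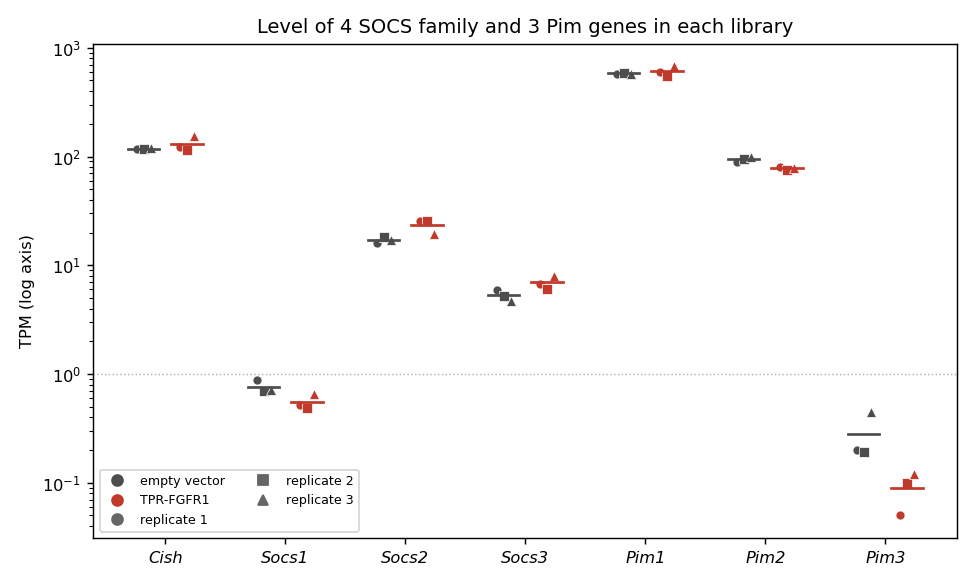
TPM of each gene (log axis) in the 3 empty vector (grey) and 3 TPR-FGFR1 (red) libraries, with the symbol giving the replicate, the bar the group mean and the dotted line 1 TPM. The lowest library is at 553 TPM for Pim1 and at 115.5 TPM for Cish, while Socs1 and Pim3 stay under 1 TPM in all of them.

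Cish (ENSMUSG00000032578, chromosome 9) encodes CIS, which competes with STAT5 for docking sites on cytokine receptors. Its promoter is shown because it holds a pair of STAT5-type motifs (TTCNNNGAA, which reads the same on both strands), set in capitals. The window, from RefSeq on GRCm38.p6, is chr9:107296409-107296708, plus strand, with 250 bases before the transcript start and 50 after it.
Cish promoter: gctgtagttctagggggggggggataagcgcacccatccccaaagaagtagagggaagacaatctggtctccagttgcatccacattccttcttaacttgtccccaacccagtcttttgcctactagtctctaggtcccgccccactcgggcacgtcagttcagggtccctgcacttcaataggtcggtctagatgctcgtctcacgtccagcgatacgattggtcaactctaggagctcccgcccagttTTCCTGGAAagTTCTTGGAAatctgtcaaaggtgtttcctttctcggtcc
The first motif begins at base 1 of the transcript and the second at base 12. Of 32851 promoter windows of this length, 8.30% held at least 1 such motif and 0.457% at least 2. A match is a description of the sequence and not evidence of binding in these cells.

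Cish stood at 116.3, 116.3 and 118.6 TPM in the empty vector libraries and at 123.0, 115.5 and 155.7 TPM in TPR-FGFR1 replicates 1, 2 and 3. Replicate 3 was the high one, replicate 2 lay below all empty vector libraries, and the groups overlapped. The means were 117 ± 1.31 and 131 ± 21.3 TPM (SD, n = 3 per group), with a log2 fold change of 0.15 (95% interval −0.12 to 0.43, limma adjusted p = 0.361, with an exact permutation p = 0.4, two-sided as for the other genes, where 0.1 is the smallest possible). Without TPR-FGFR1 replicate 3 it was 0.03 (limma adjusted p = 0.666). After the GC and length correction, all 3 fusion libraries were higher than the empty vector mean, by 0.22, 0.21 and 0.43. The corrected log2 fold change was 0.29 (95% interval 0.12 to 0.45, limma adjusted p = 0.0223). With the replicate number as a block as well, this call was lost (limma adjusted p = 0.0555), and Cish was called in 2 of 22 alternative settings. Gm17040 and Gm17041, annotated on the strand opposite Cish, reached at most 0.44 TPM.

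Socs2 (ENSMUSG00000020027, chromosome 10) encodes an inhibitor best known for restraining growth hormone signalling through STAT5. It was at 16.0, 18.1 and 17.2 TPM with the empty vector and at 25.8, 25.7 and 19.3 TPM with the fusion. The groups did not overlap, but replicate 3 lay close to the empty vector range and the other fusion libraries well above it. The means were 17.1 ± 1.03 and 23.6 ± 3.73 TPM (SD, n = 3 per group). The log2 fold change of 0.43 (95% interval 0.13 to 0.73) just missed the threshold (limma adjusted p = 0.0536, with an exact permutation p = 0.1). Socs2 was called higher in 10 of 22 alternative settings, among them the fit without TPR-FGFR1 replicate 3, at 0.57 (limma adjusted p = 0.00206), and the corrected fit, at 0.31 (limma adjusted p = 0.0192).

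Socs3 (ENSMUSG00000053113, chromosome 11) encodes a JAK inhibitor that acts mainly at receptors of the interleukin-6 family and at the G-CSF receptor. Its promoter is shown as the only other one that holds the motif among the 6 genes with a window (all but Socs2), again in capitals. The RefSeq window is chr11:117969317-117969616 of GRCm38.p6, minus strand.
Socs3 promoter: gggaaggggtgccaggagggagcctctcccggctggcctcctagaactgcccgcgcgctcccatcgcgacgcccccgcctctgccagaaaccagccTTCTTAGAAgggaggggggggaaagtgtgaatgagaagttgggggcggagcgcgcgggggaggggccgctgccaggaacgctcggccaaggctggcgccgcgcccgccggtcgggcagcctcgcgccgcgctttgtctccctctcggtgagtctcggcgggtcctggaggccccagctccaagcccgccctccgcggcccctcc
The motif begins at position −154 from the transcript start. Socs3 was at 5.90, 5.24 and 4.68 TPM with the empty vector and at 6.77, 6.10 and 7.99 TPM with the fusion. All fusion values lay above all empty vector values, with fusion replicate 2 just above empty vector replicate 1. The means were 5.27 ± 0.611 and 6.95 ± 0.958 TPM (SD, n = 3 per group), with a log2 fold change of 0.34 (95% interval 0.03 to 0.65, limma adjusted p = 0.103, with an exact permutation p = 0.1).

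Among those of the 7 genes that passed the filter, Socs3 had the largest corrected fold change. Its log2 fold change became 0.76 (95% interval 0.53 to 0.99, limma adjusted p = 0.00317), and the 3 fusion libraries then lay 0.82, 0.83 and 0.62 above the empty vector mean. Without TPR-FGFR1 replicate 3 it was 0.25 as deposited (limma adjusted p = 0.122) and 0.83 with the correction (limma adjusted p = 0.00267). Socs3 was called in 4 of 22 alternative settings, which were the corrected fits and the fit with weights per library.

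Socs1 (ENSMUSG00000038037, chromosome 16) encodes a direct and potent inhibitor of JAK kinases. It was at 0.88, 0.70 and 0.71 TPM with the empty vector and at 0.52, 0.49 and 0.65 TPM with the fusion. The groups did not overlap, with the fusion libraries lower. In the fit without a filter its difference on log2(TPM + 1) was −0.18 (95% interval −0.40 to 0.03, limma adjusted p = 0.287, with an exact permutation p = 0.1). At this level the pseudocount sets the size, which was −0.40 with a pseudocount of 0.1 and −0.0535 with 5. The sign turned after the correction, to 0.06 (limma adjusted p = 0.688). On log2(TPM + 1) the fusion libraries were at only 0.58 to 0.72, so the turned sign is not read as a rise.

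Pim1 (ENSMUSG00000024014, chromosome 17) encodes the kinase first found as a common insertion site of leukaemia retroviruses in mice. The more upstream of its RefSeq promoters is shown as that of the most abundant of these transcripts (GRCm38.p6, chr17:29490535-29490834, plus strand). It is 81.3% G and C, against a median of 52.7% over all windows, and holds no TTCNNNGAA, so no letters are in capitals.
Pim1 promoter: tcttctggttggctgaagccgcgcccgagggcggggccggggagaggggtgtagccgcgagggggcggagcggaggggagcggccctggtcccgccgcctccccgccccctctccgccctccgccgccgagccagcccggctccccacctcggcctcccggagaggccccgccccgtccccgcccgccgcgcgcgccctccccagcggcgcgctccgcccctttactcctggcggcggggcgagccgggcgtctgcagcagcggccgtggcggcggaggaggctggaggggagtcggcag
Of the 6 genes with a window, 2 held the motif. It was not found in the windows of Socs1, Pim2 or Pim3, or in the second window of Pim1, which says only that these letters are not in those windows.

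Pim1 was at 577, 588 and 577 TPM with the empty vector and at 595, 553 and 673 TPM with the fusion. The empty vector libraries were close together, the fusion libraries lay on both sides of them, and replicate 3 was again the highest. The means were 581 ± 6.18 and 607 ± 61.3 TPM (SD, n = 3 per group), with a log2 fold change of 0.06 (95% interval −0.16 to 0.28, limma adjusted p = 0.664, with an exact permutation p = 0.7). It was −0.02 without TPR-FGFR1 replicate 3 (limma adjusted p = 0.772). After the correction, Pim1 was 0.39, 0.39 and 0.27 above the empty vector mean in fusion replicates 1, 2 and 3. The corrected log2 fold change was 0.35 (95% interval 0.23 to 0.47, limma adjusted p = 0.00437). Pim1 was called in 3 of 22 alternative settings, all of them with the correction. Gm26885, annotated on the strand opposite Pim1, was at 14.7 to 25.7 TPM; the library kit was stranded, but the strand setting of the counting is not given in the sources used here.

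Pim2 (ENSMUSG00000031155, chromosome X) encodes a Pim kinase that supports survival of growth factor dependent blood cells. It was at 89.3, 94.3 and 98.2 TPM with the empty vector and at 80.6, 74.8 and 77.9 TPM with the fusion. Every fusion library was below every empty vector library. Pim2 fell from a mean of 93.9 ± 4.44 to one of 77.8 ± 2.86 TPM (SD, n = 3 per group), a log2 fold change of −0.27 (95% interval −0.44 to −0.10, limma adjusted p = 0.0441, with an exact permutation p = 0.1). The call held in 10 of 22 alternative settings, with limma adjusted p-values from 0.00358 to 0.736. It was lost without any 1 library other than TPR-FGFR1 replicate 3 (limma adjusted p from 0.0930 to 0.157). In those fits the calls over all tested genes also dropped, from 2600 to between 220 and 869. After the correction the log2 fold change was −0.05 (limma adjusted p = 0.691), with fusion replicates 1 and 2 at 0.05 and 0.04 above the empty vector mean and replicate 3 at −0.24.

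Pim3 (ENSMUSG00000035828, chromosome 15), the remaining kinase of the family, was nearly absent. It was at 0.20, 0.19 and 0.45 TPM with the empty vector and at 0.05, 0.10 and 0.12 TPM with the fusion, in values deposited to 2 decimals. The fusion libraries were all lower. The fit without a filter gave a difference of −0.23 on log2(TPM + 1) (95% interval −0.44 to −0.01, limma adjusted p = 0.202, with an exact permutation p = 0.1). It was −0.95 with a pseudocount of 0.1 and −0.0525 with 5, and turned to 0.09 after the correction (limma adjusted p = 0.677). On log2(TPM + 1) the fusion libraries were at only 0.07 to 0.16, so the turned sign is not read as a rise.

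**Figure D2:**
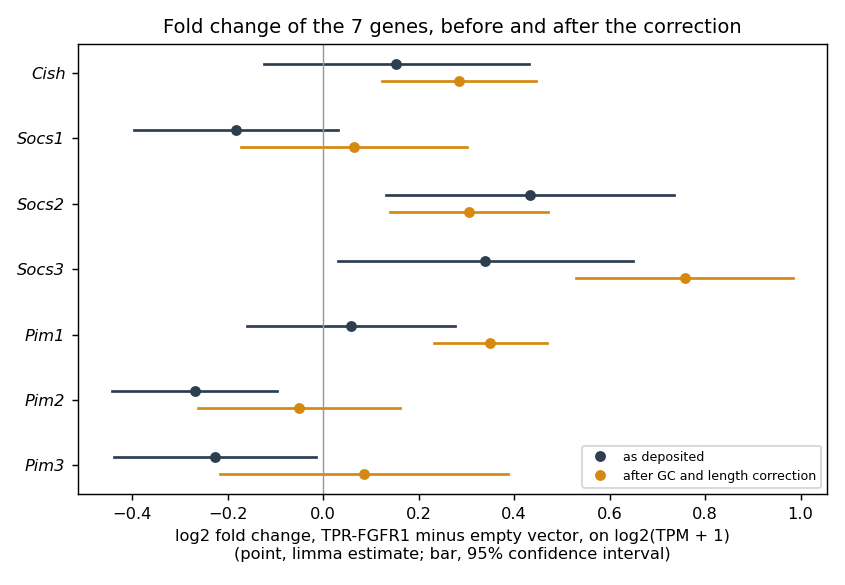
Log2 fold change of each gene, TPR-FGFR1 minus empty vector, with its 95% confidence interval, as deposited (dark) and after the GC and length correction (orange). Cish, Socs3 and Pim1 lie further right after the correction and Pim2 lies near 0, while Socs2 moves from 0.43 to 0.31. Socs1 and Pim3 were under the filter, and both of their values come from fits without it.

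Among the 5 tested genes, the deposited values did not overlap between groups for Socs2 and Socs3 on the higher side, as for 22.6% of tested genes, or for Pim2 on the lower side, as for 20.8%. The correction moved the genes unevenly, and their GC content differs. The longest annotated transcript of Socs2 is 45.4% G and C, whereas those of the other genes lie between 53.1% (Cish) and 61.9% (Pim3). As deposited, TPR-FGFR1 replicate 3 was the highest fusion library for Cish, Socs3 and Pim1 and the lowest for Socs2. After the correction, the fusion libraries lay above all empty vector libraries for Cish, Socs2, Socs3 and Pim1, as they did for 25.3% of genes (23.3% lay below), and Pim2 overlapped. Fusion replicates 1 and 2 then lay close together for each of the 5 genes. Whether the trend over GC content arose in the cells or in the libraries was not tested.

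**Figure D3:**
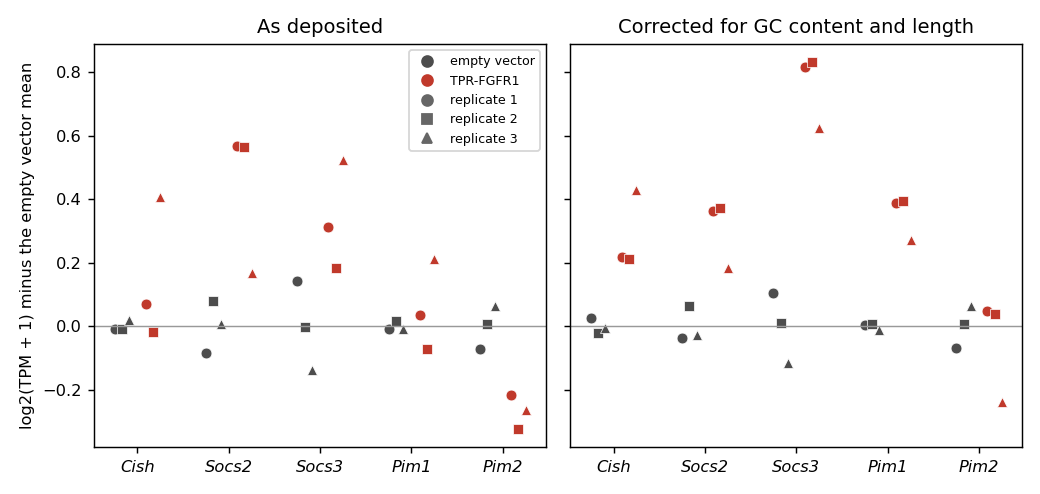
Log2(TPM + 1) of the 5 tested genes in each library minus the empty vector mean, as deposited (left) and after the GC and length correction (right). On the left, replicate 3 of the fusion (red triangle) is the highest for Cish, Socs3 and Pim1, and on the right all 3 fusion libraries of Cish, Socs2, Socs3 and Pim1 lie above the empty vector libraries.

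Shares within each family do not depend on how a library is scaled. They were taken from the deposited values, so a trend over GC content stays in them where members differ, as Socs2 (45.4%) does from Cish (53.1%). Cish made up 83.5% ± 0.577 of the summed TPM of the 4 SOCS family genes with the empty vector and 80.6% ± 3.66 with the fusion (SD, n = 3 per group). Socs2 made up 11.5% to 12.9% with the empty vector, and 16.5%, 17.4% and 10.5% in TPR-FGFR1 replicates 1, 2 and 3. Replicate 3 was thus below the empty vector range and the other fusion libraries above it. Pim1 made up 85.4% to 86.6% of the summed TPM of the 3 Pim genes with the empty vector and 88.1% to 89.6% with the fusion. The ratio of Pim1 to Pim2 was 5.88 to 6.46 with the empty vector and 7.38, 7.38 and 8.64 with the fusion. Both the share of Pim1 and this ratio were higher in every fusion library than in any empty vector library. As Pim3 was at most 0.07% of the sum, these are 1 observation and not 2. How often other gene pairs behave so was not tested. The summed level of the 3 Pim genes was 675 ± 7.90 TPM with the empty vector and 685 ± 62.5 TPM with the fusion. That of the 4 SOCS family genes was 140 ± 1.01 and 162 ± 18.7 TPM (SD, n = 3 per group).

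SOCS proteins act with elongins B and C (Elob, Eloc), cullin 5 (Cul5) and Rnf7 as a ubiquitin ligase. Of these 4 genes and the relatives Socs4, Socs5, Socs6 and Socs7, 0 of 8 were called higher and 2 lower. Of all tested genes, 10.2% were called higher and 10.0% lower. Rnf7, which encodes the RING subunit, fell from a mean of 81.5 ± 4.91 to one of 54.3 ± 1.82 TPM (SD, n = 3 per group), a log2 fold change of −0.58 (limma adjusted p = 0.00847). The Rnf7 call held in 20 of 22 alternative settings. Elob fell from 157 ± 25.3 to 64.9 ± 41.2 TPM, a log2 fold change of −1.42 (limma adjusted p = 0.0432), and its call held in 9 of 22. Elob stood at 44.9, 37.5 and 112 TPM in TPR-FGFR1 replicates 1, 2 and 3, so replicate 3 lay nearest to the empty vector range. The median log2 fold change of these 8 genes was 0.09, and that of all tested genes 0.02. Without TPR-FGFR1 replicate 3, 3 of the 8 were called higher and 2 lower, where 26.3% of all tested genes were called higher and 23.4% lower.

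Upstream were 22 genes from the interleukin-3 receptor to STAT5 and its regulators. Of these, 2 were called higher and 3 lower, about the share over all tested genes (10.2% and 10.0%). Their median log2 fold change was −0.11, against 0.02 for all tested genes. The kinase gene Jak2 rose from 42.2 ± 2.45 to 60.1 ± 7.38 TPM (SD, n = 3 per group), a log2 fold change of 0.49 (limma adjusted p = 0.0256). Pias1, which encodes a SUMO ligase that restrains STAT proteins, rose by 0.68 on that scale (limma adjusted p = 0.0140). Il3ra, the gene of the receptor's alpha chain, fell from 8.76 ± 3.38 to 2.89 ± 1.19 TPM, a log2 fold change of −1.32 (limma adjusted p = 0.0259). Its empty vector replicate 1 was high, at 12.6 TPM against 6.41 and 7.23 TPM in replicates 2 and 3. Csf2rb2, the gene of the beta chain specific to interleukin-3 in the mouse, fell from 154 ± 6.39 to 123 ± 6.44 TPM (log2 fold change −0.32, limma adjusted p = 0.0295). Reads of Csf2rb2 may be divided with its close paralogue Csf2rb, which had a log2 fold change of −0.57 and did not pass (limma adjusted p = 0.0522). Stat6 was the other gene called lower (log2 fold change −0.37, limma adjusted p = 0.0435). Its call held in 11 of 22 alternative settings and was lost after the correction (limma adjusted p = 0.0680). The calls of Jak2, Il3ra and Csf2rb2 held in 15 of 22 each, and that of Pias1 in 18. Neither STAT5 gene passed the test. Stat5a was at 16.6 ± 0.626 and 14.1 ± 1.80 TPM and Stat5b at 20.2 ± 0.514 and 16.3 ± 4.20 TPM (limma adjusted p = 0.156 and 0.188). After the correction 6 of the 22 were called higher and 5 lower (16.4% and 15.4% of all genes), and without TPR-FGFR1 replicate 3, 5 higher and 10 lower (26.3% and 23.4%).

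Of 18 further STAT5 targets, 16 were tested (Ccnd1 and Bcl6 were under the filter). Of these 16, 2 were called higher and 1 lower, near the 10.2% and 10.0% of all tested genes. The median log2 fold change of the 16 was 0.00. Mcl1, which encodes a survival protein of the BCL2 family, rose from 83.8 ± 4.58 to 109 ± 12.5 TPM (SD, n = 3 per group, limma adjusted p = 0.0455). Cdk6, the gene of a cell cycle kinase, rose from 85.5 ± 1.20 to 112 ± 9.81 TPM (limma adjusted p = 0.0257). Osm, the gene of the cytokine oncostatin M, fell from 44.0 ± 0.538 to 31.4 ± 2.05 TPM (limma adjusted p = 0.0122). The calls of Mcl1, Cdk6 and Osm held in 14, 15 and 17 of 22 alternative settings. The survival gene Bcl2l1 was at 88.5 ± 3.72 and 101 ± 6.999 TPM and did not pass (limma adjusted p = 0.126). After the correction it was called higher, at a log2 fold change of 0.48 (limma adjusted p = 0.00626). The survival gene Bcl2 did not pass either (limma adjusted p = 0.181) and was called lower after the correction, at −0.29 (limma adjusted p = 0.00936). Bcl2l1 was called in 4 of 22 alternative settings and Bcl2 in 3. The corrected fit called 3 of the 16 higher and 2 lower, where 16.4% of genes were called higher and 15.4% lower. Myc was at 113 ± 8.30 and 112 ± 10.1 TPM and did not pass (limma adjusted p = 0.912). Without TPR-FGFR1 replicate 3, 5 of the 16 were called higher and 4 lower, near the 26.3% and 23.4% of all tested genes.

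Of 16 genes whose proteins are reported substrates of Pim kinases, 14 were tested (Foxo1 and Irs1 were under the filter). Of these 14, 1 was called higher and 4 lower, where 10.2% of all tested genes were called higher and 10.0% lower. The median log2 fold change of the 14 was −0.24, and that of all tested genes 0.02. Mark3, which encodes the kinase C-TAK1, rose from 23.0 ± 1.09 to 38.8 ± 1.88 TPM (SD, n = 3 per group, limma adjusted p = 0.00651), a call held in 22 of 22 alternative settings. Cxcr4, a chemokine receptor gene, fell from 11.1 ± 0.375 to 6.91 ± 0.753 TPM (limma adjusted p = 0.0127). Cdkn1b, the gene of the cell cycle inhibitor p27, fell from 46.3 ± 2.30 to 35.4 ± 0.397 TPM (limma adjusted p = 0.0181). Eif4ebp1, which encodes a repressor of translation initiation, fell from 136 ± 8.35 to 71.7 ± 19.6 TPM (limma adjusted p = 0.0183). Foxo3 was the last of the 4 called lower (log2 fold change −0.32, limma adjusted p = 0.0307). The calls of Cxcr4, Cdkn1b, Eif4ebp1 and Foxo3 held in 19, 16, 17 and 15 of 22 alternative settings. The proapoptotic gene Bad was at 20.5, 21.9 and 17.3 TPM with the empty vector and at 8.80, 7.25 and 19.3 TPM with the fusion, and did not pass (limma adjusted p = 0.107). Its fusion replicate 3 lay within the empty vector range. Phosphorylation of these proteins was not measured.

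**Figure D4:**
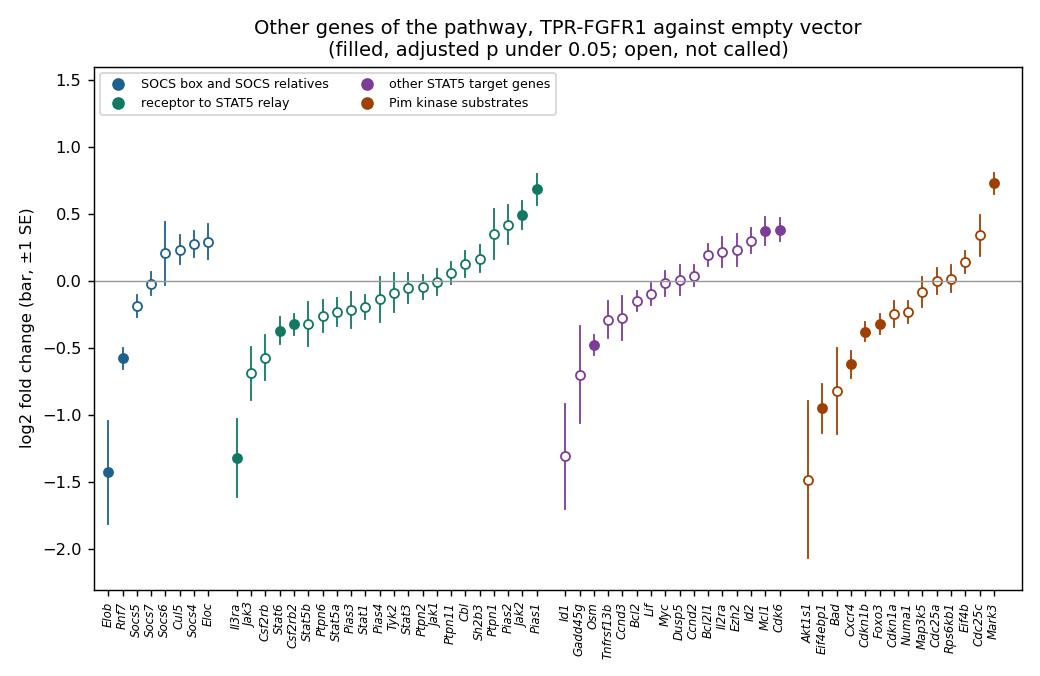
Log2 fold change (TPR-FGFR1 minus empty vector, with bars of 1 SE) of each tested gene of the 4 lists, ordered within each list, with filled symbols at an adjusted p under 0.05. Called genes lie on both sides of 0 in the upstream, target and substrate lists, and below 0 in the list of SOCS box genes and relatives.

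For each of the 5 tested genes, the genes of most similar course were taken as those with the smallest root mean square difference of log2(TPM + 1), centred over the 6 libraries, among 8631 protein-coding genes. Cabp1 and Kyat1 were closest to Cish, at 0.0237 and 0.0256. Atxn10 and Glrx3 were closest to Socs2 (0.0217 and 0.0252), and like it were high in TPR-FGFR1 replicates 1 and 2 and nearer to the empty vector in replicate 3. Atxn10 stood at 117, 115 and 87.9 TPM in those libraries and at 74.5 to 81.3 TPM with the empty vector. Phlda1 and Snx21 were closest to Socs3, at 0.0505 and 0.0570. Kremen1 and Tnpo2 were closest to Pim1, at 0.0222 and 0.0233, and Irak4 and Fto to Pim2, at 0.0150 and 0.0216. Within the 5 genes, Cish and Pim1 were the most alike, at 0.0709, and Socs2 and Pim2 the least, at 0.379.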

How the data were processed

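Per the labels' protocols, libraries of Ba/F3 cells were made from total RNA with a stranded mRNA kit and sequenced as read pairs. The authors deposited TPM values for 57010 gene IDs. The tools fastp, HISAT2 and StringTie and the mouse build GRCm39 are named in the submitters' processing notes, with versions and annotation not given in the sources used. Symbols, GC content and transcript length came from GENCODE M21, matched by ID (52029 IDs, 91.3%, and 12541 of the tested genes, 97.5%), and promoters from RefSeq on GRCm38.p6, searched for TTCNNNGAA. Promoters were found for 6 of the 7 genes. Protein sequences were not used here.

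Genes averaging 1 TPM or more were compared as log2(TPM + 1) with limma 3.58.1 in R 4.3.3 (eBayes with trend, a term for group alone), with Benjamini-Hochberg adjustment over all tested genes. This scale understates fold changes of low genes. Genes under the filter took their values from a fit without it. The GC and length correction subtracted from each library a spline trend (4 degrees of freedom for each) of its deviations from the gene means, for the tested genes with a symbol. Single genes were also compared by exact permutation. The limma fit at its main settings was tested on simulated data, into which no trend over GC content was put.

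The genes and lists were chosen with earlier results of these data known. Besides the 7 genes, up to 4 called genes of smallest adjusted p are named per list, and the genes of nearest course (protein-coding, at least 5 TPM, no Gm or Rik names). Others named were chosen after their values were seen. Alternatives numbered 22: a pseudocount of 0.1 or 5, a filter at 5 TPM or none, 3 other scalings, mitochondrial genes left out, eBayes with robust settings or no trend, weights per library, a replicate block, the correction, protein-coding genes alone, and leaving out each library.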

Additional observations from a re-analysis of the deposited data

How the results depend on the processing

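Values of Socs1 and Pim3, both under 1 TPM, depended on the pseudocount (−0.40 and −0.95 with 0.1, −0.0535 and −0.0525 with 5). The GC and length correction alone, with the replicate block, and without TPR-FGFR1 replicate 3 gave Socs1 0.0646, 0.0646 and 0.12, Pim3 0.0854, 0.0854 and 0.18, Socs2 0.31, 0.31 and 0.37, Socs3 0.76, 0.76 and 0.83, Pim1 0.35, 0.35 and 0.39, Pim2 −0.0505, −0.0505 and 0.0462, and Cish 0.29, 0.29 and 0.21. Socs2 also passed with a filter at 5 TPM (0.43), median of ratios (0.41), upper quartile (0.43) and quantile scaling (0.45), library weights (0.52) and protein-coding genes alone (0.43), and Socs3 with library weights (0.31). Pim2 was no longer called without a filter, without trend or with the replicate block (−0.27 each), or without mitochondrial genes (−0.24). The cause was not tested.

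Calls over all genes moved with the setting. In the main fit 1309 of 12862 were called higher and 1291 lower. Library weights gave 4096 and 3506, the block 343 and 421, and no filter 620 and 526 of 26204. The correction gave 2052 and 1934 of 12541. With the block as well it gave 1230 and 1143, and without TPR-FGFR1 replicate 3, 2511 and 2391 of 12546. Of the 7 genes, 5 passed the filter. With a filter at 5 TPM, with each of the 3 other scalings and with protein-coding genes alone, 1 was called higher. Library weights called 2 higher, and the 3 corrected fits 4, 3 and 4. In those corrected fits 0 were called lower, as without a filter, without trend, without mitochondrial genes and with the block. For the SOCS box list, library weights called 3 higher, and 1 was called lower without a filter, with the 3 other scalings, without trend, with robust settings and in both blocked fits. For the upstream list, 1 was called higher without a filter and with the block, 5 with library weights, and 6, 5 and 7 in the corrected fits. Its lower calls were 1 without a filter and with the block, 12 with library weights, 5 and 7 in the corrected fits without the block, and 5 with a pseudocount of 0.1, a filter at 5 TPM, robust settings or protein-coding genes. Of the STAT5 targets, 1 was called higher without a filter or trend, 6 with library weights, 0 with the block and 5 in the corrected fit without TPR-FGFR1 replicate 3; 2 were called lower in the corrected fits, with a filter at 5 TPM and with protein-coding genes, 4 with library weights and 0 with the block. Of the Pim substrates, 7 were called lower with library weights and 2 with the block. Over all genes, the remaining settings with every library kept called 1159 to 1748 higher and 1162 to 1525 lower, of 9781 to 13124 tested.

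Leaving out 1 library gave log2 fold changes from 0.03 to 0.24 for Cish, −0.23 to −0.14 for Socs1, 0.37 to 0.57 for Socs2, 0.25 to 0.42 for Socs3, −0.0186 to 0.12 for Pim1, −0.30 to −0.24 for Pim2 and −0.28 to −0.13 for Pim3. Higher and lower calls then ran from 0 to 1 and 0 to 1 for the 7 genes, 0 to 3 and 0 to 2 for the SOCS box list, 0 to 5 and 0 to 10 upstream, 0 to 5 and 0 to 4 for the targets, and 1 to 1 and 0 to 6 for the substrates. Over all genes, 2600 were called, 1146 without a filter, 3986 with the correction, 7602 with library weights and 764 with the replicate block. Leaving out TPR-FGFR1 replicate 3 gave 3387 higher and 3009 lower calls of 12864 genes. Leaving out any other 1 library gave 111 to 426 higher and 109 to 443 lower calls, so the counts of the lists moved with those over all genes. Same-numbered libraries did not deviate together (correlations −0.193, −0.075 and −0.153, and 0 of 6 libraries closest to their own number), so the numbers are not read as a pairing. TPM keeps no depth, so how far low genes such as Socs1 and Pim3 are limited by counting is unknown.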
